A study of Homo sapiens with 41 samples.

Results

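The 41 genes described here encode the machinery of autophagy, aggresome handling and the lysosome. They were chosen by name for their place in these pathways, with earlier results of these data known. They stand among 19974 protein-coding genes on chromosomes 1 to 22 and X, all of which were located in the same way. Because of that choice, shares of members set beside shares of all genes are descriptions and carry no p-value. The data come from MDA-MB-231 (written MDA-MB231 in the labels), an established line of human triple-negative breast cancer cells. The groups were cells given 5 µM Nexturastat A (NextA), an inhibitor of the deacetylase HDAC6, for 2 days against control cells (Ctrl), and cells carrying a short hairpin against HDAC6 (shHDAC6) against cells carrying a control hairpin (shCtrl). The labels give 100000 cells for each ChIP-seq and ATAC-seq library, made with kits for in situ ChIP and for ATAC. In all, 32 peak lists were used. HDAC6 was profiled by ChIP-seq in 2 shHDAC6, 2 NextA and 2 Ctrl lists and by CUT&Tag in 2 Ctrl lists. Acetylated histone H3 (panAc, an antibody to 5 acetylated lysines) gave 2 NextA and 2 Ctrl lists. RNA polymerase II (PolII, through the carboxy-terminal domain of its subunit Rpb1) gave 2 lists in each of the 4 groups. Open chromatin (ATAC-seq) gave 3 lists in each of the 4 groups. The HDAC6 ChIP replicates of NextA and Ctrl cells are not alike: the first used an antibody from CST and the second one from Novus, while both shHDAC6 lists and the CUT&Tag lists used the Novus antibody. No HDAC6 or panAc list of shCtrl cells was analysed here, nor any panAc list of shHDAC6 cells. Whether the hairpin cells are clones or pools, and whether replicates came from separate cultures, is not given in the sources used here, so a p-value measures only the spread between these lists.

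Macroautophagy encloses cytoplasm in a membrane and delivers it to the lysosome. The ULK complex (ULK1, ULK2, RB1CC1, ATG13 and ATG101) starts it, and the PIK3C3, BECN1 and ATG14 complex makes the lipid that WIPI proteins read. ATG9A and ATG2A bring membrane lipid, and ATG3, ATG4B, ATG5, ATG7, ATG10, ATG12 and ATG16L1 attach ATG8 proteins (the LC3 and GABARAP families) to the membrane. Receptors such as SQSTM1 (p62), NBR1 and OPTN tie ubiquitin-marked cargo to ATG8 proteins. Misfolded protein that is not degraded is carried along microtubules to a deposit near the nucleus, the aggresome. BAG3 is a co-chaperone and VCP an unfolding ATPase of that route, and HDAC6 is known for linking ubiquitin-marked cargo to the dynein motor. The MiT/TFE transcription factors TFEB, TFE3 and MITF bind the E-box CACGTG in promoters of lysosome genes. LAMP1 and LAMP2 are lysosome membrane proteins, MCOLN1 is a lysosome calcium channel, and CTSB, CTSD, CTSL and HEXA are lysosome hydrolases. VPS37B is a subunit of the sorting complex ESCRT-I, and CCZ1 is part of the factor that activates RAB7 before fusion.

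A gene start was counted as marked in a list if a peak lay within 1 kb of it. The windows of 10 members (ATG13, ATG2A, ATG9A, ATG3, ATG4B, ATG12, MAP1LC3B, SQSTM1, NBR1 and OPTN) also hold the start of another gene, so a peak there cannot be given to the member alone. The lists hold 235 to 63833 peaks in HDAC6 ChIP and 1418 to 61186 in panAc, but 19519 to 31198 in PolII and 25878 to 79666 in ATAC. The lists carry no read counts, so depth is unknown and list length stands in for it. The second NextA HDAC6 list (Novus, 235 peaks) and the first Ctrl panAc list (1418 peaks) stand apart by their length. Among markers of the labelled cell type, VIM was marked in 12 of 12 ATAC and 8 of 8 PolII lists, and KRT8 and KRT18 in 9 ATAC and 8 PolII lists each. The receptor gene ESR1, the leukocyte gene PTPRC and the endothelial gene CDH5 were marked in 0 lists of either assay. The luminal gene CDH1 was marked in 0 ATAC and 2 PolII lists. ERBB2 was marked in 12 ATAC and 8 PolII lists, and the leukocyte gene CD3E in 5 ATAC lists. The neuron gene SNAP25 was marked in 7 ATAC and 4 PolII lists, and CD44 in 6 and 6. EPCAM was marked in 3 ATAC and 3 PolII lists, and KRT19 in 1 and 4. The receptor gene PGR and the endothelial gene PECAM1 were marked in 1 list of each assay.

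The promoters below belong to members on which the results turn. ATG3 and MAP1LC3B had HDAC6 in every control list and kept a peak in a NextA list, LAMP1 and CTSL had HDAC6 in every control list and in no NextA list, and VPS37B and GABARAP were the members whose open chromatin at the start changed. Each runs 5′ to 3′ on the gene's strand from 250 bases before to 50 bases after the annotated start (RefSeq, GRCh38.p14). Capitals mark the E-box CACGTG, the AP-1 letters TGACTCA, the cyclic-AMP response element TGACGTCA, the ETS-type letters CCGGAAG and the GC box GGGCGG on either strand, and adjoining or overlapping matches run together.
ATG3, chr3:112561913-112562212, minus strand: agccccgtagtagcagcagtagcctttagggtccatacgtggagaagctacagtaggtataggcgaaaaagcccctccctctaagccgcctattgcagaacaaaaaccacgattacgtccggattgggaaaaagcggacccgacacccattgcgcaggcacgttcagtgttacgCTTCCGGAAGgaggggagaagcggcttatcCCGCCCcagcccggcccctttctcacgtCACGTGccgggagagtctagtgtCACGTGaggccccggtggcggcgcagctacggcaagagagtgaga
MAP1LC3B, chr16:87392086-87392385, plus strand: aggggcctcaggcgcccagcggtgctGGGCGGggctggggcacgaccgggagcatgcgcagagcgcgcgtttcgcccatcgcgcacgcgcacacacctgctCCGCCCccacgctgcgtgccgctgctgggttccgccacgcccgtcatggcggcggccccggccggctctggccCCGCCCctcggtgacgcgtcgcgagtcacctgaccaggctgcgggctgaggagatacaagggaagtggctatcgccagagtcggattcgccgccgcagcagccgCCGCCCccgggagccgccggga
LAMP1, chr13:113296989-113297288, plus strand: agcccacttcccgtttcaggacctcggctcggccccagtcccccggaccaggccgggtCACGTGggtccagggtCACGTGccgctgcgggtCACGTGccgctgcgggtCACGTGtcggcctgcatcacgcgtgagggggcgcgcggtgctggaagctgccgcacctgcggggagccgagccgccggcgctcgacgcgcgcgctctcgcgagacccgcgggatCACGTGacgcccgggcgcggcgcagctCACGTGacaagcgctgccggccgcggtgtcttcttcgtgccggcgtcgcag
CTSL, chr9:87725869-87726168, plus strand: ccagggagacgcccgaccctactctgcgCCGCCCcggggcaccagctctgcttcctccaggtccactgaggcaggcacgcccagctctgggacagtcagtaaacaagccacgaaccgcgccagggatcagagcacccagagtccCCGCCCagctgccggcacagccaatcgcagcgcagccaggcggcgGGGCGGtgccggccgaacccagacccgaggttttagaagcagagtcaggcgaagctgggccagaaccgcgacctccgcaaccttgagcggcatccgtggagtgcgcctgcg
VPS37B, chr12:122896075-122896374, minus strand: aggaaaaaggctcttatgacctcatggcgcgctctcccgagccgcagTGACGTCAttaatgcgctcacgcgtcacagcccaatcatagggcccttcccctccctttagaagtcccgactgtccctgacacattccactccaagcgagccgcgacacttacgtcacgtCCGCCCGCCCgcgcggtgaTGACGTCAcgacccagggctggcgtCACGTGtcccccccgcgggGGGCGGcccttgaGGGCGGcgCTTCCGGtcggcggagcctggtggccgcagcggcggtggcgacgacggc
GABARAP, chr17:7242400-7242699, minus strand: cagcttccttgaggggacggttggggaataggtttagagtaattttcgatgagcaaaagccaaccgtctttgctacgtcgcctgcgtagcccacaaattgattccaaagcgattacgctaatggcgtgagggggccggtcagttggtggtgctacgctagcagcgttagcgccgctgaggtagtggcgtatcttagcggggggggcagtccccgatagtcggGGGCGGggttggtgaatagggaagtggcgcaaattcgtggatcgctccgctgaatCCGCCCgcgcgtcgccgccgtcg

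The promoter table held 35 of the 41 members, 55 of 72 further autophagy and lysosome genes, and 15812 protein-coding genes. The E-box CACGTG lay in 6 of the 35 member promoters (17.1%), in 11 of the 55 (20%) and in 1723 promoters overall (10.9%). In its longer form GTCACGTG, which the MiT/TFE factors are known to prefer, it lay in the same 6 members, ATG3, ATG14, CTSD, LAMP1, MCOLN1 and VPS37B, against 4.07% of all promoters. With TCACGTG, the letters in between, the shares were 17.1% of members and 5.83% of all. LAMP1 held 6 copies of CACGTG, ATG3 and MCOLN1 held 2 each, and ATG14, CTSD and VPS37B held 1 each. The ETS-type letters CCGGAAG lay in 10 members (28.6%, against 16.5% of all), and the GC box GGGCGG in 28 (80%, against 64.2%). TGACGTCA lay in 3 members (8.57%, against 3%), GABARAPL1, MITF and VPS37B. The AP-1 letters TGACTCA lay in BAG3 and TFE3 (5.71%, against 5.27%). The NRF1-type letters GCATGCGC lay in MAP1LC3B and MCOLN1 (5.71%, against 4.89%), and TATAAA in ATG5 and MITF (5.71%, against 12.4%). In MITF both TGACGTCA and TATAAA lay only at its annotated start 197128 bp inside, which no list marked. The TATAAA of ATG5 lay at its annotated start 9494 bp inside, which no PolII list marked. Letters on both strands were counted, and the shorter E-box forms lie inside the longer ones. Member promoters had a median GC content of 66.7%, against 62.7% for all promoters.

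Most of these genes were open and carried polymerase in every state measured. PolII was marked at the start in all 8 lists for 35 of the 41 members (85.4%), against 51.5% of all genes. ATAC was marked in all 12 lists for 24 members (58.5%), against 40.8% of all genes and 81.9% of the further autophagy and lysosome genes. All 7 genes of the ATG8 conjugation machinery were marked in all PolII and all ATAC lists. The lysosome proteins were uneven: all 7 had PolII in 8 lists, but 3 of 7 had ATAC in 12 lists. CTSB was marked in 1 ATAC list, CTSD in 2, MCOLN1 in 4 and LAMP1 in 6, although each had PolII in every list.

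The 2 members without PolII in any list were ATG101 and MAP1LC3A. For ATG101, the RefSeq start 4678 bp inside the gene's outermost end had PolII in 8 of 8 lists, ATAC in 12 of 12 and HDAC6 CUT&Tag in 2 of 2. MAP1LC3A, which encodes LC3A, has no entry in the promoter table, and its strand was not given. A peak lay at its low-coordinate end in 0 of the 32 lists and at its high-coordinate end in 2. Its paralog MAP1LC3B, the most studied LC3, had PolII in 8 and ATAC in 12 lists.

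**Figure D1:**
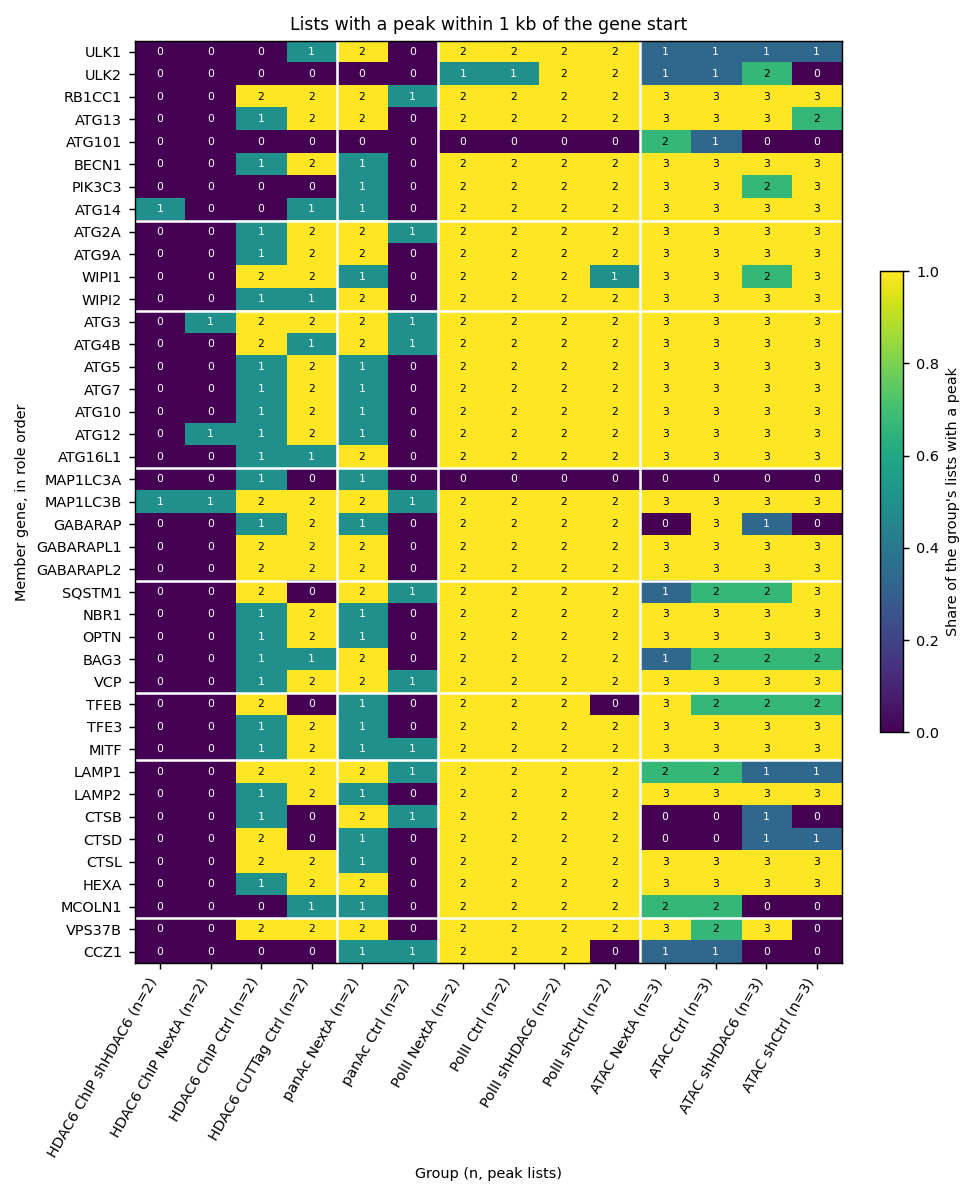
Number of peak lists with a peak within 1 kb of the gene start for each of the 41 members (rows, in role order, white lines between roles) in each of 14 groups (columns, 2 or 3 lists each); colour gives the share of the group's lists. PolII columns are full for most members, and HDAC6 is seen mainly in Ctrl lists. GABARAP and VPS37B lack ATAC in every list of at least 1 group, as do ULK2, ATG101, MAP1LC3A, CTSB, CTSD, MCOLN1 and CCZ1. TFEB and CCZ1 lack PolII in both shCtrl lists, as do ATG101 and MAP1LC3A, which lack it in every list.

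HDAC6 in control cells lay at the start of 9 members in all 4 control lists (CST ChIP, Novus ChIP and both CUT&Tag). They were RB1CC1, WIPI1, ATG3, MAP1LC3B, GABARAPL1, GABARAPL2, LAMP1, CTSL and VPS37B. That is 22% of the 41 members, against 7.92% of all 19974 genes and 4.17% of the 72 further autophagy and lysosome genes (3 genes). Among starts with ATAC in the 3 Ctrl lists and PolII in the 2 Ctrl lists, the share was 7 of 28 members (25.0%), against 15.7% of 9216 genes and 3 of 64 further pathway genes (4.69%). Of the 5 ATG8 genes, 3 were among the 9, as were 2 of the 7 lysosome genes, and 0 of the 5 cargo and aggresome genes and 0 of the 3 MiT/TFE genes. Members and the further pathway genes were marked about alike in the CST list (75.6% and 80.6%) and in both CUT&Tag lists (61.0% and 63.9%), while in the Novus ChIP list the shares were 39.0% and 15.3%, against 21.7% of all genes. Without that list, 24 members (58.5%) and 31.3% of all genes had HDAC6 in every remaining list. With only peaks of a −log10 q of at least 5 there were 0 members and 0 genes in all 4, and with every list shortened to 14458 peaks there were 1 member and 175 genes. The Novus ChIP list held 26 peaks at that −log10 q, so that setting cannot tell members from other genes.

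**Figure D2:**
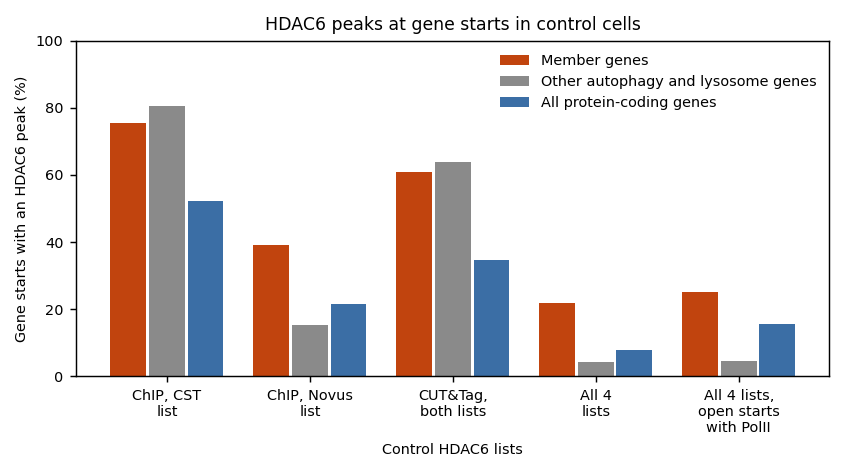
Percent of gene starts with an HDAC6 peak within 1 kb in control cells (y axis, from 0) for 41 members, 72 further autophagy and lysosome genes, and 19974 protein-coding genes, by list; the last set of bars is limited to starts with ATAC and PolII in all Ctrl lists (28, 64 and 9216 genes). Members stand at 22% in all 4 lists, against 7.92% of all genes, and the further pathway genes at 4.17%.

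The strength of a peak is given as its percentile, the share of peaks of the same list with a smaller fold over background as the authors' peak caller gave it, with ties shared evenly. ATG3, the enzyme that hands LC3 to its lipid, had HDAC6 percentiles of 95.1 in CST ChIP, 58.3 in Novus ChIP, and 88.9 and 96.3 in CUT&Tag. VPS37B had 63.4 in CST ChIP, 98.6 in Novus ChIP, and 64.4 and 93.6 in CUT&Tag. CTSL had 84.1, 54.9, 89.4 and 74.0 in the same order. These 3 had the highest means of the 9 (84.6, 80 and 75.6) and were above the middle of every list.
LAMP1 had 85.6 in CST ChIP, 41.1 in Novus ChIP, and 71.1 and 93.9 in CUT&Tag. RB1CC1, the FIP200 scaffold of the ULK complex, had 85.2, 64.7, 59.5 and 67.2 in that order. GABARAPL2 had 52.4, 47.7, 81.9 and 55.0. RB1CC1 varied least among the 9, over 59.5 to 85.2.
WIPI1 had 82.3 in CST ChIP, 3.77 in Novus ChIP, and 89.2 and 87.0 in CUT&Tag. GABARAPL1 had 96.2, 5.76, 74.1 and 84.3 in that order. MAP1LC3B had 29.2, 25.9, 65.7 and 84.1. WIPI1 and GABARAPL1 were thus near the bottom of the Novus ChIP list while high in the other 3, and MAP1LC3B was low in both ChIP lists.

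Some members have more than 1 annotated start. SQSTM1 lacked CUT&Tag HDAC6 at its outermost start, but at the start 14512 bp inside HDAC6 was marked in all 4 control lists. TFEB lacked it at the gene end used as its start, while its 3 annotated starts, 615, 1163 and 1822 bp inside, were marked in all 4 control lists. With every annotated start counted, 11 members and 9.09% of all genes were marked in all 4.

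With NextA, 11 of the 13 members marked in both Ctrl HDAC6 ChIP lists were marked in neither NextA list. Across the genome the same held for 91.4% of 2957 starts, and for 9 of 9 further pathway genes, so the members' share is near that of all genes. The members were ATG4B, CTSD, CTSL, GABARAPL1, GABARAPL2, LAMP1, RB1CC1, SQSTM1, TFEB, VPS37B and WIPI1. The NextA lists are far shorter than the Ctrl lists with the same antibody, 3256 peaks against 28590 with CST and 235 against 63833 with Novus. With all 4 lists shortened to 235 peaks, 0 members and 0 genes were lost. With the Novus list of Ctrl cells left out, 28 of 31 members were lost (90.3%), against 92.3% of 10433 genes.
For the 4 that were not among the 9 above, Ctrl percentiles were 59.0 (CST) and 24.0 (Novus) for CTSD and 17.9 and 14.7 for ATG4B. They were 23.9 and 1.7 for SQSTM1 and 7.26 and 4.22 for TFEB. All 4 were weaker in both lists than VPS37B, RB1CC1 and CTSL.
ATG3 and MAP1LC3B kept a peak in the CST list of NextA cells. ATG3 was at percentile 53.9 there, with a fold over background of 3.61, against 95.1 and a fold of 3.98 in the CST list of Ctrl cells. MAP1LC3B was at 27.1 with a fold of 3.33 in NextA cells, against 29.2 and 2.9 in Ctrl cells. ATG12, a ubiquitin-like protein that is joined to ATG5, also had a CST peak in NextA cells at percentile 21.5, against 80.5 in Ctrl cells.
In shHDAC6 cells, 15 of the 16 members marked in the Novus Ctrl list were marked in neither Novus list, against 93.9% of 4340 genes. Here too the members' share is near that of all genes, and the list set against shHDAC6 is of Ctrl, not shCtrl, cells. The shHDAC6 lists are also shorter, with 16441 and 12152 peaks, against 63833 in the Novus Ctrl list. With all 3 lists shortened to 12152 peaks (an alternative chosen after seeing the data), 2 members were marked in the Novus Ctrl list and both were in neither shHDAC6 list, against 88.3% of 795 genes. MAP1LC3B kept a peak in 1 shHDAC6 list at percentile 0.0699, against 25.9 in the Novus Ctrl list. ATG14 had a peak at percentile 60.2 in the first shHDAC6 list and none in either Ctrl ChIP list. These were the 2 members (4.88%) with a peak in at least 1 shHDAC6 list, against 4.29% of all genes. Peak lists hold no HDAC6 RNA or protein, so the knockdown itself is not checked by them.

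Histone H3 acetylation gained a peak at 10 members with NextA, meaning a peak in both NextA lists and in no Ctrl list, of 30 that could gain. The background was 25.1% of 15559 starts, and 26 of 55 further pathway genes gained. The members were ULK1 and ATG13 of the ULK complex, ATG9A and WIPI2, ATG16L1, GABARAPL1 and GABARAPL2, BAG3, HEXA and VPS37B. None lost a peak, as 0 members had a peak in both Ctrl lists.
ATG13 was at panAc percentiles 62.4 and 92.8 in the NextA lists, BAG3 at 99.6 and 36.7, and VPS37B at 90.5 and 36.8. ATG16L1 was at 96.8 and 28.4, GABARAPL1 at 77.3 and 44.9, and HEXA at 29.3 and 87.0. WIPI2 was at 93.2 and 19.0, ATG9A at 93.2 and 11.2, ULK1 at 85.0 and 1.13, and GABARAPL2 at 48.0 and 3.21. All Ctrl lists were empty at these starts, and the NextA replicates placed most of them far apart, with 8 of the 10 higher in the first list.
GABARAPL1, GABARAPL2 and VPS37B were among both the HDAC6 losses (27.3% of the 11) and the acetylation gains (30.0% of the 10). Over all genes, 677 starts did both, which is 25.1% of 2702 losses and 17.3% of 3913 gains. The further pathway genes with the highest percentiles were LAMTOR4 (97.0 and 99.7), VPS4A (99.7 and 79.9), LAMTOR1 (83.3 and 95.4), NPC2 (78.6 and 93.0), LAMTOR5 (66.9 and 94.1) and VPS33A (90.2 and 67.4). LAMTOR proteins anchor nutrient signalling at the lysosome, and all 6 of these genes had a higher mean percentile than any member that gained. With lists of equal length, or with a −log10 q of at least 5, 0 members gained. At that −log10 q the second NextA list held 75 peaks, and 0 of all genes gained. Without the second Ctrl list 17 of 38 members gained (44.7%), against 30.8% of 18738 genes. Without the second NextA list 27 of 30 did (90.0%), against 50.6% of 15559 genes.

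No member passed a test of PolII with NextA. Of the 38 members marked in both Ctrl lists 0 were lost (background 0.0834%), and of the 2 marked in neither 0 were gained (background 0.878%). For strength, the peak folds at starts marked in all 4 lists were ranked within each list and given as percentiles among those common starts, and tested with limma on normal scores. limma called 0 of 10573 starts (0.0%) with Benjamini-Hochberg adjustment, of which 38 were members. At an unadjusted p under 0.05 there were 100 starts and 0 members. The 2 replicates of a group agreed poorly here (Spearman 0.295 to 0.351 across starts), and less than same-numbered NextA and Ctrl lists did (0.574 to 0.643). The test above did not pair lists by number. With the replicate number as a block, limma again called 0 starts, with 509 starts and 0 members at an unadjusted p under 0.05.
In 4 members both NextA lists stood above both Ctrl lists (background 12.5% of starts), and in 1 member below (background 11.9%). These are counts near or below the background. LAMP2 was at common-start percentiles of 75.9 and 67.6 in NextA cells, against 63.1 and 44.2 in Ctrl cells. OPTN was at 61.6 and 33.4 in NextA cells, against 26.4 and 29.3 in Ctrl cells. MAP1LC3B was at 84.6 and 87.0 in NextA cells, against 82.9 and 60.2 in Ctrl cells. In each, the gap between groups was small beside the spread of at least 1 group. VCP was at 78.3 and 66.4 in NextA cells, against 66.4 and 65.7 in Ctrl cells, where the nearest values differ only past the printed digits. MITF was the member below, at 30.8 and 9.67 in NextA cells, against 46.6 and 48.2 in Ctrl cells. Adjusted p was 1.0 for all 5 with limma, and with 2 lists against 2 an exact unpaired permutation test cannot go below 0.33.

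**Figure D3:**
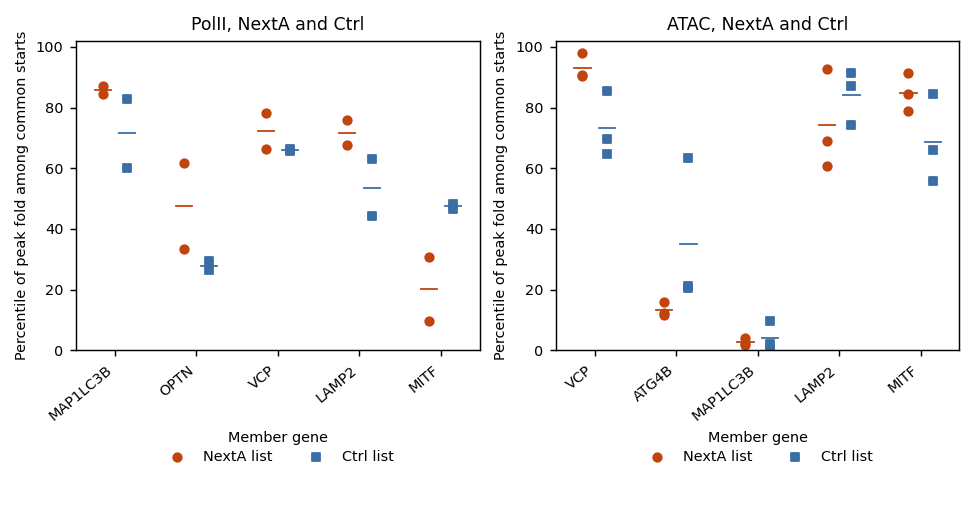
Percentile of peak fold among common gene starts (y axis) in NextA lists (circles, left) and Ctrl lists (squares, right) for PolII (2 lists a group) and ATAC (3 lists a group). Members are those whose groups did not overlap in the assay shown. MAP1LC3B, LAMP2 and MITF, which stood apart in PolII only, are also shown for ATAC. OPTN in ATAC and ATG4B in PolII were measured but are not drawn. Short lines are means. VCP stands higher in NextA cells in ATAC (90.4 to 98.0, against 64.7 to 85.5), and in PolII its lists nearly touch.

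With the hairpin, PolII strength shifted at members much as it did at all genes. limma called 20 of 36 members, 9 higher and 11 lower in shHDAC6 cells, against 26.9% higher and 26.4% lower of 11996 starts. Among 65 further pathway genes, 17 rose and 21 fell. The hairpin replicates agreed closely (Spearman 0.968 to 0.969 within a group, 0.75 to 0.775 between groups). They also shared more identical peak start positions (3.76% in shHDAC6 and 2.92% in shCtrl) than the replicates of NextA (0.0631%) and Ctrl (0.0262%) cells did. The p-values below thus rest on a small spread. Groups did not overlap at 11 members that were higher (background 40.1%) and 16 that were lower (background 39.3%). When peaks were ranked by their −log10 p in place of fold, 7 members rose and 3 fell, against 14.9% higher and 14.5% lower of all 11996 starts. Values that follow are percentiles of fold among common starts, and adjusted p is that of limma with Benjamini-Hochberg adjustment.

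The initiation genes moved in both directions. ATG14, which targets the PIK3C3 complex to autophagy, was at 92.9 and 91.8 in shHDAC6 cells, against 54.2 and 55.8 in shCtrl cells (adjusted p = 0.00119). BECN1 was at 74.7 and 81.3 in shHDAC6 cells, against 51.0 and 51.3 in shCtrl cells (adjusted p = 0.00504). Its peaks were narrower in shHDAC6 cells, 1670 and 1345 bp, against 3444 and 3047 bp in shCtrl cells, and the part of peak width in this result was not tested. PIK3C3, the lipid kinase, was at 59.2 and 51.6 in shHDAC6 cells, against 28.9 and 24.4 in shCtrl cells (adjusted p = 0.00508). All 3 genes of the lipid kinase complex among the members thus rose by 26.9 to 37.3 percentile points, and each also rose when ranked by −log10 p and with any list left out. The rise was not shared by every partner of PIK3C3. Of the further pathway genes, PIK3R4 was at 60.5 and 63.8 in shHDAC6 cells, against 86.1 and 80.1 in shCtrl cells (adjusted p = 0.00874). UVRAG was at 37.1 and 35.5 in shHDAC6 cells, against 53.3 and 52.3 in shCtrl cells (adjusted p = 0.0163).
RB1CC1 was at 75.4 and 69.1 in shHDAC6 cells, against 56.6 and 53.8 in shCtrl cells (adjusted p = 0.0202). ATG13 was at 63.4 and 65.3 in shHDAC6 cells, against 91.6 and 92.4 in shCtrl cells (adjusted p = 0.00152), in a window shared with the start of HARBI1. Within the ULK complex RB1CC1 therefore rose while ATG13 fell, and both held with −log10 p ranks. With 1 list left out in turn, RB1CC1 kept its call only without the second shHDAC6 list. ULK1, the kinase, was at 15.5 and 16.0 in shHDAC6 cells, against 28.4 and 28.8 in shCtrl cells. ULK2 was at 5.96 and 6.28 in shHDAC6 cells, against 18.2 and 15.7 in shCtrl cells. These falls of 12.9 and 10.8 points passed the test on fold but not on −log10 p ranks, and with 1 list left out ULK1 kept its call only without the first shCtrl list.

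The conjugation genes were also split. ATG4B, the protease that primes ATG8 proteins, was at 56.6 and 59.2 in shHDAC6 cells, against 18.6 and 19.5 in shCtrl cells (adjusted p = 0.0015). It showed the largest rise of the 36, by 38.9 points, and held with −log10 p ranks, but its window is shared with the start of THAP4. ATG3 was at 22.5 and 25.1 in shHDAC6 cells, against 55.1 and 44.1 in shCtrl cells. ATG7, the activating enzyme, was at 68.2 and 67.6 in shHDAC6 cells, against 80.4 and 85.3 in shCtrl cells. ATG16L1 was at 56.4 and 58.3 in shHDAC6 cells, against 74.8 and 68.0 in shCtrl cells. These 3 fell on the fold scale but did not pass with −log10 p ranks, and with 1 list left out ATG7 kept its call only without the first shCtrl list and ATG16L1 only without the second shCtrl list. ATG5, ATG10 and ATG12 did not pass the test, with differences of 3.43, −4.15 and −5.24 points. ATG9A, the scramblase that supplies membrane, was at 26.1 and 31.1 in shHDAC6 cells, against 45.0 and 42.5 in shCtrl cells. ATG9A turned its direction with −log10 p ranks, and it lost the call with any of the 4 lists left out.

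Of the ATG8 genes, MAP1LC3B was at 78.6 and 80.0 in shHDAC6 cells, against 42.3 and 49.8 in shCtrl cells (adjusted p = 0.00267). GABARAP was at 50.7 and 45.6 in shHDAC6 cells, against 66.9 and 61.5 in shCtrl cells (adjusted p = 0.0285). MAP1LC3B rose, also with −log10 p ranks, while GABARAP fell on the fold scale alone and lost the call with any of the 4 lists left out. The MAP1LC3B window is shared with the start of FBXO31. GABARAPL1 and GABARAPL2 did not pass, with differences of −13.4 and −2.07 points.

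NBR1 and HEXA fell furthest. NBR1 was at 17.8 and 19.9 in shHDAC6 cells, a mean of 18.8 ± 1.46, against 89.0 and 83.4 in shCtrl cells, a mean of 86.2 ± 3.97 (SD, n = 2 each, limma adjusted p = 0.00103). Its window holds the start of BRCA1, so the peak cannot be given to NBR1 alone. HEXA, a subunit of the lysosome enzyme hexosaminidase, was at 50.1 and 45.3 in shHDAC6 cells, a mean of 47.7 ± 3.38, against 97.7 and 95.0 in shCtrl cells, a mean of 96.3 ± 1.87 (SD, n = 2 each, limma adjusted p = 0.00125). Its peaks were also wider in shHDAC6 cells, 1548 and 1579 bp, against 975 and 947 bp in shCtrl cells. The part of peak width in this result was not tested. HEXA and BECN1 were the called members whose mean peak width differed by over 1.5 times. NBR1 and HEXA also fell with −log10 p ranks. NBR1's peaks were of like width, 2529 and 2489 bp in shHDAC6 cells, against 2673 and 2681 bp in shCtrl cells.
The other cargo and aggresome genes SQSTM1, OPTN, BAG3 and VCP did not pass, with differences of −4.23, 1.75, 4.48 and −8.53 points.

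Among the other lysosome genes, LAMP2 was at 87.5 and 88.7 in shHDAC6 cells, against 71.7 and 75.9 in shCtrl cells. CTSL was at 70.1 and 68.3 in shHDAC6 cells, against 56.7 and 53.3 in shCtrl cells. CTSD was at 44.8 and 32.3 in shHDAC6 cells, against 20.8 and 15.9 in shCtrl cells. These 3 rose, of which CTSL also with −log10 p ranks. CTSL lost the call with any of the 4 lists left out, CTSD kept it only without the second shHDAC6 list, and LAMP2 lost it only without that list. MCOLN1 was at 13.2 and 12.2 in shHDAC6 cells, against 36.9 and 32.2 in shCtrl cells, and fell on the fold scale alone. LAMP1 and CTSB did not pass, with differences of 0.779 and 5.12 points. TFE3 and MITF did not pass either, with 5.84 and −1.94 points, nor did ATG2A, WIPI2 and VPS37B, with 20.7, −2.28 and −3.96 points. ATG101, MAP1LC3A, WIPI1, TFEB and CCZ1 lacked a peak in at least 1 of the 4 lists and were not ranked.

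**Figure D4:**
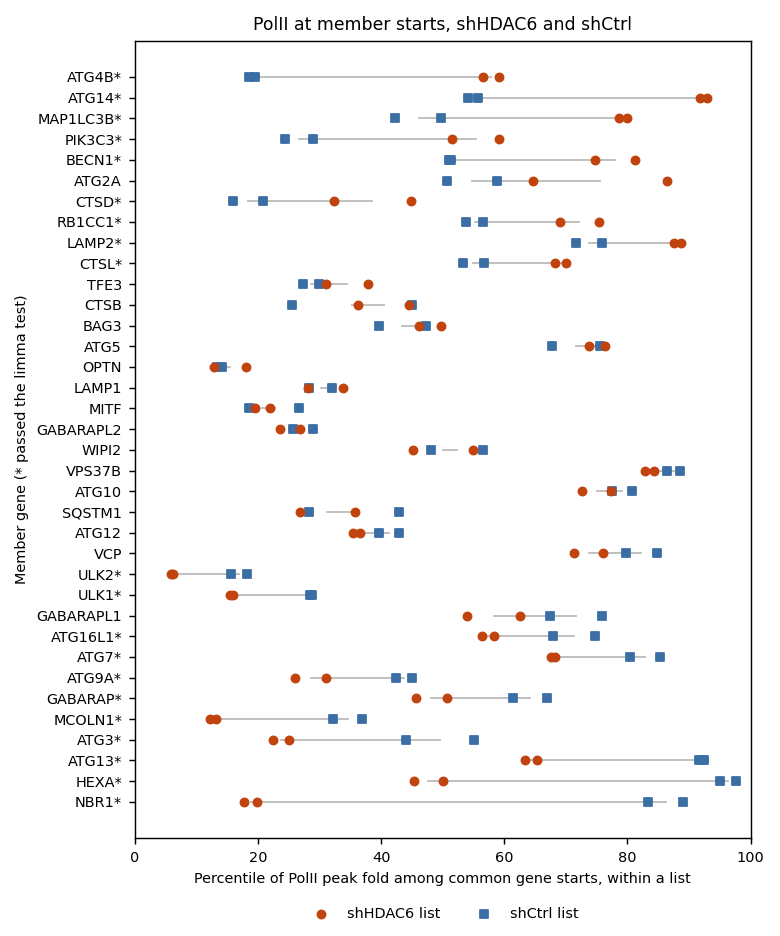
Percentile of PolII peak fold among 11996 common gene starts (x axis) at 36 member starts (rows) in each shHDAC6 list (circles) and shCtrl list (squares), ordered by the difference of means, with grey lines joining the means; asterisks mark the 20 members with an adjusted p under 0.05 in limma. Peaks at ATG4B, NBR1 and other members with a neighbouring start within 1 kb cannot be given to the member alone. ATG4B and ATG14 lie furthest to the right of their shCtrl values and NBR1 and HEXA furthest to the left.

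By presence, 2 of 4 members that could gain a PolII peak in shHDAC6 cells did (background 2.17%), and 0 of 36 that could lose one did (background 0.974%). TFEB (chr6:41683978-41736223, minus strand) had peaks at list percentiles 24.2 and 15.7 in shHDAC6 cells and none within 1 kb in shCtrl cells. The shHDAC6 peaks began 639 and 373 bp downstream of the start, against 1128 and 1159 bp for shCtrl peaks, which lay just outside the window. With a window of 3 kb, or with TFEB's inner annotated starts, PolII was marked in both shCtrl lists too, so the call rests on where the peak edge lies.
CCZ1 (chr7:5898733-5926550) had peaks at 55.6 and 48.8 in shHDAC6 cells and none within 4 kb in shCtrl cells. Ctrl and NextA cells were marked in both lists each. CCZ1 has a near-identical copy, CCZ1B, at whose start PolII was at 91.9 and 91.4 in shHDAC6 cells, against 53.8 and 65.4 in shCtrl cells. Reads of the copies cannot be told apart here, so neither value can be given to 1 of them with certainty. Of the further pathway genes, VPS41, a subunit of the HOPS tether, lost its PolII peak, which was absent in both shHDAC6 lists and at 63.6 and 38.4 in shCtrl lists.

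Open chromatin with NextA differed at 1 member start. GABARAP (chr17:7240008-7242449, minus strand) had no ATAC peak within 1 kb in the 3 NextA lists, against percentiles of 0.582, 28.3 and 8.47 in the 3 Ctrl lists. It was 1 of 28 members that could lose a peak (background 0.0901% of 9988 starts, 9 genes), and 0 of 3 gained (background 0.167%). The peak was among the weaker of each Ctrl list, with folds of 2.98, 4.79 and 4.22. In shHDAC6 cells 1 of 3 lists held it, at percentile 1.47, and in shCtrl cells 0 of 3. A stronger peak 2388 to 3261 bp downstream of the start was present in all 12 lists. GABARAP was not lost with lists of equal length, with a −log10 q of at least 5 or with a 3 kb window, which takes in that neighbouring peak. Its PolII was marked in all 8 lists.
On strength, limma called 0 of 9347 common starts (0.0%), 27 of them members, with 231 starts and 1 member at an unadjusted p under 0.05. This fit and the p values below did not pair lists by number, though the numbers were taken to pair these samples. With the replicate number as a block, limma called 2 starts and 0 members. At an unadjusted p under 0.05 the blocked fit had 569 starts and 1 member. VCP was at 98.0, 90.7 and 90.4 in NextA cells, against 85.5, 64.7 and 69.7 in Ctrl cells (background 3.31% all higher, exact two-sided permutation p = 0.1, limma adjusted p = 1.0). ATG4B was at 11.5, 12.2 and 16.0 in NextA cells, against 20.5, 63.4 and 21.3 in Ctrl cells (background 3.77% all lower, the same p values). An exact unpaired test on 3 lists against 3 cannot go below 0.1. VCP's NextA values thus all lay above the Ctrl range, and ATG4B's difference rests largely on the second Ctrl list.
Inside the 41 gene bodies 166 ATAC regions were seen in NextA or Ctrl cells, of which 59 were in every Ctrl list and 28 in none. Of these, 1 was lost, at GABARAP (background 0.302%), and 2 were gained (background 1.72%). The gains were in BAG3, 24096 bp from its start (chr10:119675155-119675797, NextA percentiles 5.54, 21.4 and 42.3), and in SQSTM1 at its inner start (chr5:179820335-179821330, NextA percentiles 0.415, 0.0351 and 0.486). Within 1 kb of that SQSTM1 start, ATAC was marked in 3 of 3 NextA and 2 of 3 Ctrl lists. The region was therefore gained, but the start was not by the rule. The SQSTM1 peaks were among the weakest of their lists, and with a −log10 q of at least 5 the changes were 0. At MITF's second annotated start, 24347 bp inside, ATAC was marked in 3 of 3 NextA lists and 1 of 3 Ctrl lists, which is no gain by the rule.

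With the hairpin, open chromatin differed at VPS37B (chr12:122865330-122896124, minus strand). Its start had ATAC percentiles of 8.04, 58.3 and 33.6 in shHDAC6 cells and no peak within 4 kb in the 3 shCtrl lists. It was 1 of 8 members that could gain (background 0.487%), while 0 of 27 lost a peak (background 0.4%). NextA cells had the peak in 3 of 3 lists and Ctrl cells in 2 of 3, so shCtrl cells were the group without it. A second peak inside VPS37B, 28350 bp from its start (chr12:122867379-122868169), was also gained, at 43.3, 15.9 and 41.9 in shHDAC6 lists. These were the 2 gains among 12 member regions that could gain (background 2.0%), and 0 of 41 were lost (background 2.66%). The gain at the start was not seen with a −log10 q of at least 5 or with lists of equal length. VPS37B had PolII in all 8 lists, at common-start percentiles of 82.9 and 84.3 in shHDAC6 cells, against 88.6 and 86.5 in shCtrl cells. FLCN, the folliculin gene that acts on MiT/TFE factors at the lysosome, lost its ATAC peak among the further pathway genes, absent in shHDAC6 lists and at 33.5, 13.2 and 16.9 in shCtrl lists.
limma called 0 of 9054 starts (0.0%), 24 of them members, with 667 starts and 1 member at an unadjusted p under 0.05. ATG5 was at 96.2, 97.7 and 91.1 in shHDAC6 cells, against 82.9, 77.1 and 81.5 in shCtrl cells (limma adjusted p = 0.569). LAMP2 was at 71.5, 69.8 and 89.8 in shHDAC6 cells, against 53.5, 52.7 and 67.3 in shCtrl cells (limma adjusted p = 0.75). These 2 members lay above all shCtrl lists (background 6.37%), and neither passed the test. MITF was at 71.0, 76.0 and 78.5 in shHDAC6 cells, against 83.9, 87.4 and 88.8 in shCtrl cells (limma adjusted p = 0.808). MAP1LC3B was at 2.02, 0.718 and 0.144 in shHDAC6 cells, against 6.39, 3.66 and 2.03 in shCtrl cells (limma adjusted p = 0.688). These 2 lay below (background 6.17%), MAP1LC3B by 3.06 points near the bottom of the range. Its PolII peak in shHDAC6 cells, at 78.6 and 80.0, stood far higher among common starts than its ATAC peak.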

How the data were processed

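Per the submitters' processing notes, the reads were handled with Trim Galore 0.6.7, Bowtie2 2.4.4, SAMtools 1.13, MACS2 2.2.7.1, deepTools 3.5.1 and ChIPseeker 1.28.2 on hg38. The authors deposited 1 peak list per sample, with no header: broad peaks of 9 columns for ChIP and CUT&Tag and narrow peaks of 10 columns for ATAC. Each deposited row gives a score, a fold over background (a ratio), and −log10 p and −log10 q. Of the 41 samples, 9 input or negative-control samples were not analysed here. The score was used in no result.

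Gene starts came from RefSeq (GRCh38.p14): the 5′ gene end where the promoter table gave the strand (15813 genes, 35 members), otherwise the end marked in more of the 32 lists (3295 genes, 6 members) or both when tied (866 genes). A peak counted if it overlapped a start ± 1 kb by at least 1 bp. A start was lost if marked in every list of the compared-with group and in none of the other, and gained if the reverse. Folds at starts marked in every list of a comparison were ranked within each list and tested as normal scores with limma 3.58.1 (R 4.3.3), adjusted over all starts by the Benjamini-Hochberg method at 0.05. Scripts ran in Python 3.11.15 and were tested on simulated data. In NextA and Ctrl ATAC, same-numbered lists deviated together (correlations 0.526, 0.203 and 0.208, all over 0.1), and the numbers were taken to pair those samples. Crossed pairs of numbers 2 and 3 had like correlations (0.229 and 0.217), so these numbers are not told apart by this check. With the replicate block there, limma called 2 starts and 0 members, against 0 and 0 without it.

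The members and lists were chosen with earlier results of these data known. Values list by list are given for members marked by HDAC6 in all 4 control lists, lost or gained, or called by limma, and for up to 4 per direction whose groups did not overlap. Further pathway genes are named where lost or gained, at most 6 per comparison, and PIK3R4 and UVRAG are given beside the lipid kinase complex. Alternatives varied the window, overlap, start, −log10 q, list length, rank and block, and left out each list in turn.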

Additional observations from a re-analysis of the deposited data

How the results depend on the processing

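The calls by presence rest on weak peaks. With a −log10 q of at least 5, the count of members with HDAC6 in all 4 control lists became 0, and the members changed became 0 for HDAC6 ChIP with NextA, 0 for panAc, 1 for PolII with the hairpin (PIK3C3, gained), and 0 for ATAC with NextA and with the hairpin. At that level the Novus HDAC6 ChIP lists kept 26 of 63833 peaks in Ctrl cells and 1 of 235 in NextA cells. The panAc lists kept 15 and 202 peaks in Ctrl cells and 3854 and 75 in NextA cells. For HDAC6 and panAc the count was 0 for all genes too, so this setting cannot tell members from other genes there. With lists of equal length the counts became 1, 0 and 0 for HDAC6 marking, HDAC6 with NextA and panAc, and 0 for ATAC in both comparisons, and HDAC6 with the hairpin became 2 (an alternative chosen after seeing the data). PolII changes with the hairpin were 1 with windows of 500 bp or 3 kb, with either gene end and with annotated starts (an alternative chosen after seeing the data). ATAC changes with NextA were 0 with 3 kb or either gene end. Member regions changed were 0 (NextA) and 0 (hairpin) at the stricter −log10 q, and 0 and 1 where a peak had to cover 50% of a region. Leaving out a list gave 9 to 24 members with HDAC6 in all remaining control lists (24 without the Novus ChIP list), 11 to 28 changed for HDAC6 with NextA, 15 to 16 for HDAC6 with the hairpin, 11 to 27 for panAc, 2 to 3 for PolII and 1 to 2 for ATAC with the hairpin (2 without the second shHDAC6 list, which adds ULK2), 1 throughout for ATAC with NextA, and 12 to 14 members called by limma for PolII with the hairpin (12 without the first shHDAC6 list and 13 without the second shCtrl list). With −log10 p ranks that last count was 10, all of them among the 20, and ATG9A turned to a difference of 0.114 normal scores. The causes were not tested, except that fewer samples enter each fit without a list, where the lone list of a group is assumed to vary like the other group. With the replicate block, 21 members were called for PolII with the hairpin, including all 20. The numbers were not shown to pair those samples (correlation 0.126), nor those of ATAC with the hairpin (0.00311 to 0.011). In PolII with NextA, same-numbered lists deviated together (0.44, against −0.44 for crossed numbers, which mirror it by construction with 2 lists a group). The main test there did not pair lists. With the block, limma gave 509 starts against 100 at an unadjusted p under 0.05, and 0 calls in both. The block changed no other call of a member. The other 106 values of the main counts stayed within 1.5 times. Of single members, 180 values kept their direction and call and 38 kept only their direction.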

Other observations

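PolII peaks covered a median of 5.16% and 3.93% of the member genes' length in the 2 NextA lists, against 2.79% and 3.33% in the 2 Ctrl lists. For all genes with any PolII cover the medians were 3.85% and 3.59% in NextA lists, against 2.52% and 3.1% in Ctrl lists. In hairpin cells the member medians were 3.01% and 3.12% in shHDAC6 lists, against 2.92% and 2.98% in shCtrl lists, and those of all genes 2.96% and 2.91% in shHDAC6 lists, against 3.14% and 3.05% in shCtrl lists. Members with over 50% of their length covered numbered 5 and 1 in the NextA lists, against 2 and 1 in the Ctrl lists, and 0 and 0 in the shHDAC6 lists, against 1 and 1 in the shCtrl lists.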
